A study of Mus musculus with 36 samples.

Results

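The liver mRNA levels of Clpx, Clpp and 7 enzymes of heme synthesis (Alas1, Alad, Uros, Urod, Cpox, Ppox and Fech) were followed in mice recovering from diet-induced steatohepatitis. These 9 genes, of 24421 counted, were chosen by their symbols, and they were put together with earlier results on the same 4 groups in view. Their levels and calls are therefore a description of these mice, and the direction of Clpx and Alas1 is not independent evidence. All 9 had reads in every library and passed the filter on low counts.

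Heme is made in a chain of enzymes that begins and ends in mitochondria. ALAS1 joins glycine to succinyl-CoA in the first and rate-limiting step in the liver, and heme lowers its amount by feedback. CLPX is an unfoldase of the mitochondrial matrix that feeds proteins to the peptidase CLPP, and the CLPXP protease is known to degrade ALAS1 protein when heme is plentiful. Most hepatic heme is used by cytochrome P450 enzymes, and the clock, nutrients and nuclear receptors are known to regulate Alas1 transcription.

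RNA was sequenced from the livers of 36 male C57BL/6J mice, bought at 7 weeks of age and fed for 12 weeks on the CDAHFD, which is rich in fat, lacks choline and brings on steatohepatitis. Fc(mML1)B3 is an antibody Fc fragment with a grafted macrocyclic peptide that binds and activates the receptor Met, as hepatocyte growth factor does, and Fc without the peptide was the control. The first experiment then lasted 2 weeks on a high-fat diet (HFD) and the mice were injected subcutaneously once a week, 10 with Fc (4.3 mg/kg) and 10 with Fc(mML1)B3 (5 mg/kg). The second lasted 10 days on a standard diet with the same doses on days 1, 4 and 7, of Fc in 9 mice and of Fc(mML1)B3 in 7. Diet, number of doses, duration and experiment cannot be told apart in any comparison between the diets. Every group carried both the earlier CDAHFD feeding and an injected Fc protein, and mice without either are not analysed here.

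Each library was 1 mouse, and total counts were 14949035 to 28466853 with a median of 23558194.5. The headers of the count files give each library a number, and series were inferred from these numbers. A new series was taken to start where, in order of deposit within a group, a number came back or passed 100. Whether the series are runs, index plates or something else is not given in the sources used here. Under the HFD, Fc mice 1 to 4 carried the numbers 7 to 10 and Fc mice 5 to 10 the numbers 1 to 6. None was repeated, so the rule kept these libraries as 1 series, although the numbers step back after mouse 4. Later values with series means removed take them as 1 series too. The Fc(mML1)B3 libraries were split into mice 1 to 4 and mice 5 to 10, numbered 1 to 4 and 1 to 6. The rule works within a group, so it does not show whether Fc and Fc(mML1)B3 libraries of the HFD were handled together, and no value within a series can be given there. Under the standard diet, Fc mice 6 to 9 and all 7 Fc(mML1)B3 mice had numbers above 100 and were taken as 1 series. The 7 hepatocyte markers summed to 83300 to 167000 CPM (counts scaled to the library size) in the libraries. Between the proteins, 1 of them was called, Fgb, which was lower with Fc(mML1)B3 under the standard diet. Between the diets, Fgb and Ahsg were higher on the standard diet in Fc mice and Ahsg in Fc(mML1)B3 mice. Over all genes, 23.3% and 20.7% were higher there. The haemoglobin genes had no reads, because their exons are each listed under a second gene in the annotation, so blood in the samples could not be judged from them.

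Clpx, the unfoldase gene, lies on chromosome 9 of mm10, from 65294260 to 65330658 on the plus strand. Its level in the HFD experiment was 60, 65.2 and 83.2 CPM (lowest, median and highest) in the Fc group and 102, 216 and 316 CPM in the Fc(mML1)B3 group. On the standard diet it was 91, 120 and 169 CPM in the Fc group and 59.5, 72.6 and 80 CPM in the Fc(mML1)B3 group. The groups did not overlap in either experiment, and they stood in opposite order. All 10 Fc(mML1)B3 mice lay above all 10 Fc mice under the HFD, and all 7 lay below all 9 under the standard diet. How many of all genes separate in this way was not counted, so nothing is read from the separation itself.

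Clpx rose 3.18-fold with Fc(mML1)B3 under the HFD (log2 fold change 1.67, SE 0.16, adjusted p = 5.4e-07, quasi-likelihood test of edgeR) and fell to 0.578 of the Fc level under the standard diet (log2 fold change -0.79, SE 0.11, adjusted p = 5.2e-05). Between the diets, this effect differed by -2.45 on the log2 scale (SE 0.22, adjusted p = 4.4e-10), which placed Clpx 4th by p among 14105 genes. In liver tissue as a whole, fewer cells of a type and less RNA per cell cannot be told apart, here or in any later value. Each Fc(mML1)B3 series of the HFD was also set against all Fc mice, and these values do not hold the series constant. The log2 fold change was 1.21 (adjusted p = 6.4e-05) with Fc(mML1)B3 mice 1 to 4 and 1.92 (adjusted p = 3.9e-08) with mice 5 to 10. It was -0.58 (adjusted p = 0.0029) within the series that held both proteins under the standard diet.

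In order of mean level, Clpx was at 67.5 ± 7.5 CPM (SD, n = 10) in Fc mice on the HFD, 72.1 ± 6.55 CPM (SD, n = 7) in Fc(mML1)B3 mice on the standard diet, 124 ± 25.6 CPM (SD, n = 9) in Fc mice on the standard diet and 213 ± 74.1 CPM (SD, n = 10) in Fc(mML1)B3 mice on the HFD. The first pair of these groups overlapped over nearly their whole ranges. The other two overlapped between 102 and 169 CPM.

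**Figure D1:**
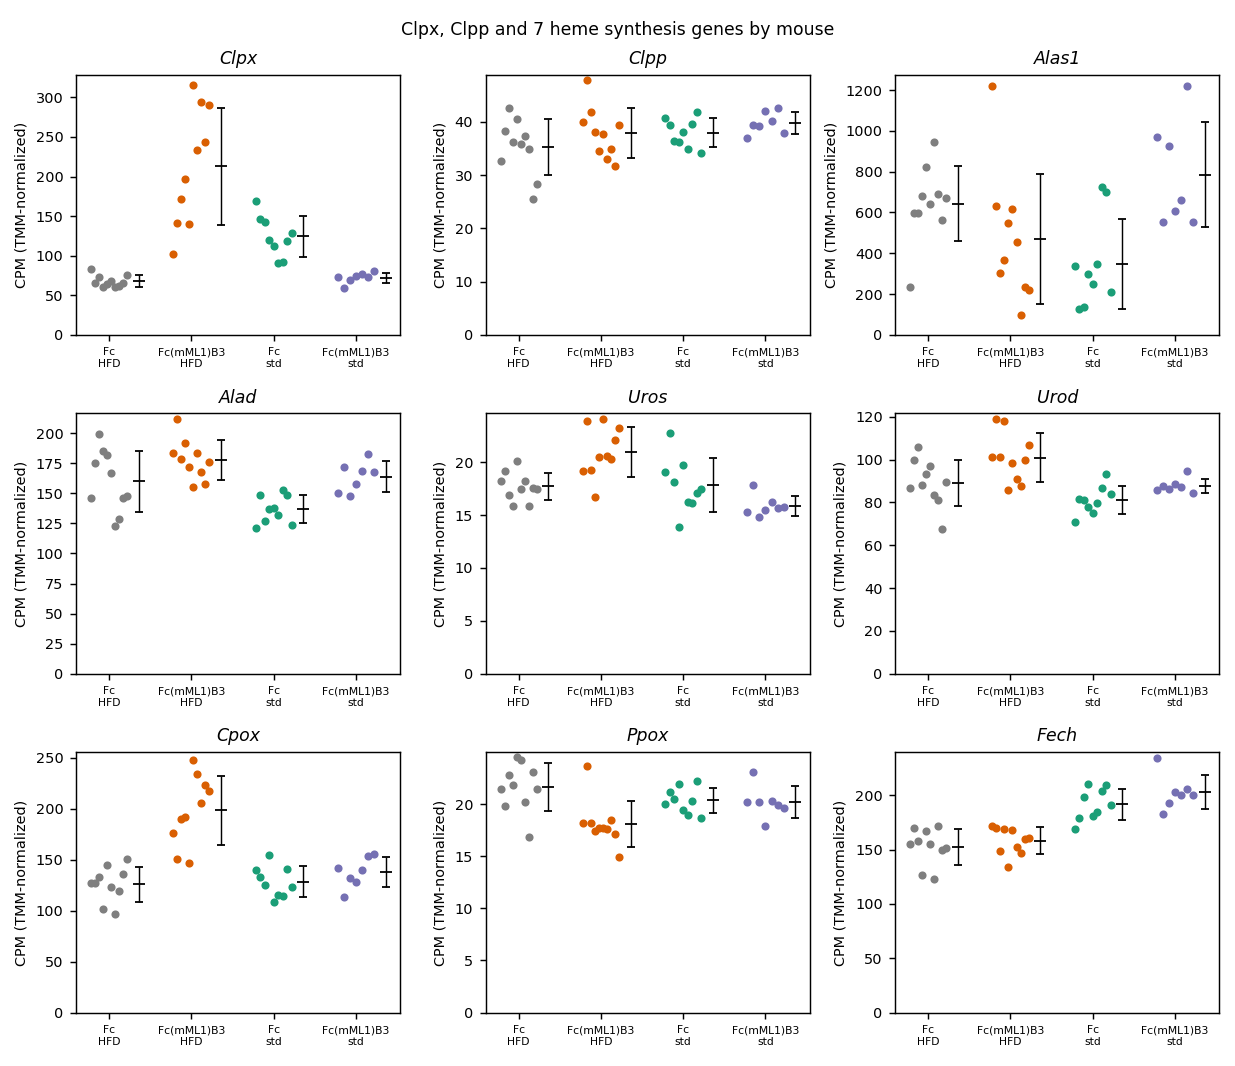
CPM of each of the 9 genes (y axis, from 0) in every mouse of the 4 groups (x axis, std is the standard diet), with 1 point per mouse and the group mean ± SD in black beside it. The Clpx groups do not overlap within a diet and stand in opposite order, at 60 to 83.2 against 102 to 316 CPM under the HFD and 91 to 169 against 59.5 to 80 CPM on the standard diet, while the groups of the other 8 genes overlap in both diets.

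Clpp encodes the peptidase that CLPX serves (chromosome 17 of mm10, 56990264 to 56996371, plus strand). It was at 35.3 ± 5.26 CPM (SD, n = 10) and 37.9 ± 4.73 CPM (SD, n = 10) in the Fc and Fc(mML1)B3 groups under the HFD. Under the standard diet it was at 38 ± 2.7 CPM (SD, n = 9) and 39.7 ± 2.08 CPM (SD, n = 7). The groups overlapped in both experiments, and Clpp passed no test, with 95% intervals of the log2 fold change of -0.07 to 0.31 under the HFD and -0.04 to 0.17 on the standard diet. Scaled to the length of the counted exons as RPKM (CPM per kilobase), Clpx stood at 23.4 ± 2.6 against 29.2 ± 4.36 for Clpp in Fc mice on the HFD and at 73.8 ± 25.7 against 31.4 ± 3.92 in Fc(mML1)B3 mice on the HFD (SD, n = 10 each). On the standard diet, Clpx stood at 43.1 ± 8.88 RPKM against 31.5 ± 2.24 for Clpp in Fc mice (SD, n = 9) and at 25 ± 2.27 against 32.9 ± 1.72 in Fc(mML1)B3 mice (SD, n = 7). By mean RPKM, Clpx was thus below its partner in the 2 groups where it was low and above it in the 2 where it was high.

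Alas1, on chromosome 9 of mm10 from 106233455 to 106247954 on the minus strand, was the most variable of the 9 genes among mice of a group, with a within-group SD of 0.78 on the log2 CPM scale against 0.34 for Clpx and 0.13 to 0.2 for the other 7. Under the HFD, it was at 232, 655 and 943 CPM (lowest, median and highest) in the Fc group and at 96.2, 410 and 1220 CPM in the Fc(mML1)B3 group. The Fc(mML1)B3 mice held both the lowest and the highest value, and the ranges overlapped. Under the standard diet, Alas1 was at 125, 296 and 724 CPM in the Fc group and at 553, 662 and 1220 CPM in the Fc(mML1)B3 group. All 7 Fc(mML1)B3 mice lay above the Fc median there, and only Fc mice 7 and 8, at 724 and 701 CPM, reached their range.

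Alas1 rose 2.26-fold with Fc(mML1)B3 under the standard diet (log2 fold change 1.17, SE 0.31, adjusted p = 0.014). Within the series that held both proteins, with Fc mice 6 to 9 alone as controls, the value was 0.66 (SE 0.31, adjusted p = 0.21) and the call was lost. Those 4 Fc mice were at 208 to 724 CPM, and Fc mice 1 to 5 of the other series were at 125 to 338 CPM. Under the HFD, the log2 fold change was -0.44 with a 95% interval of -1.08 to 0.2 (adjusted p = 0.35). It was 0.00 with Fc(mML1)B3 mice 1 to 4 and -0.82 with mice 5 to 10. With each library left out, it was -0.72 to -0.31, with an adjusted p of 0.084 or more. The difference between the diets was 1.63 (SE 0.47, adjusted p = 0.022), and without Fc(mML1)B3 mouse 6 of the standard diet it was 1.47 (adjusted p = 0.05). By mean level, Alas1 stood at 784 ± 256 CPM in Fc(mML1)B3 mice on the standard diet (SD, n = 7), 643 ± 185 in Fc mice on the HFD (SD, n = 10), 469 ± 318 in Fc(mML1)B3 mice on the HFD (SD, n = 10) and 347 ± 222 in Fc mice on the standard diet (SD, n = 9), and each neighbouring pair overlapped.

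**Figure D2:**
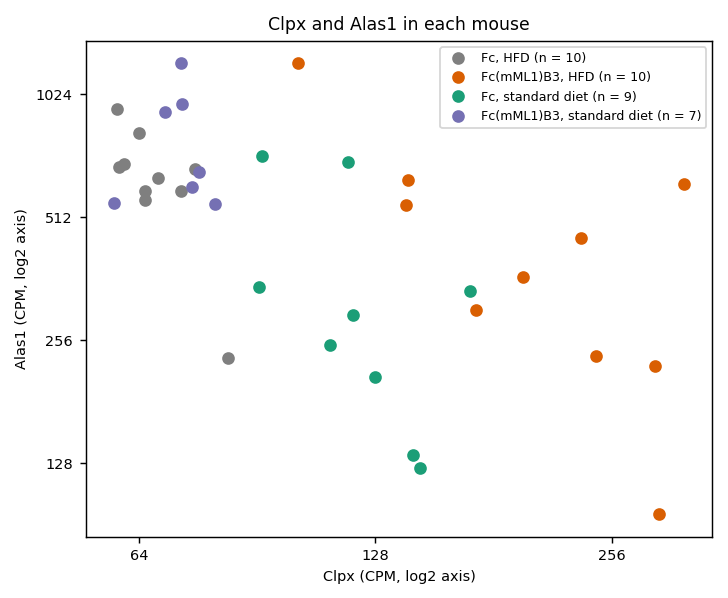
Alas1 against Clpx in each of the 36 mice (CPM, both axes on a log2 scale), with 1 point per mouse and a colour per group. Fc mice on the HFD and Fc(mML1)B3 mice on the standard diet lie together at 59.5 to 83.2 CPM of Clpx, with Alas1 at 553 to 1220 CPM except for the Fc mouse at 232 CPM, and the other 2 groups spread to the right.

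Alas1 was also read in the mice with the highest and the lowest Clpx of each group, and the levels stood in opposite order in some groups and not in others. In the Fc group on the HFD, mouse 1 had the highest Clpx (83.2 CPM) and the lowest Alas1 (232 CPM), and mouse 7 had the lowest Clpx (60 CPM) and the highest Alas1 (943 CPM). In the Fc(mML1)B3 group on the HFD, mouse 1 had the lowest Clpx (102 CPM) and the highest Alas1 (1220 CPM), but mouse 6, with the highest Clpx (316 CPM), had an Alas1 level of 619 CPM that only 2 mice of the group exceeded. In Fc mice on the standard diet, Alas1 was nearly the same in the mouse with the highest Clpx (338 CPM, mouse 1) and in the mouse with the lowest (346 CPM, mouse 6). In Fc(mML1)B3 mice on the standard diet it was at 553 CPM in mouse 7, which had the highest Clpx, and at 554 CPM in mouse 2, which had the lowest. After the mean of each group was removed, Pearson's r of log2 CPM over the 36 libraries was -0.60 (Spearman -0.53), and it was -0.78, -0.68, -0.55 and 0.04 within the Fc HFD, Fc(mML1)B3 HFD, Fc standard diet and Fc(mML1)B3 standard diet groups. Without Fc mouse 1, the value in the Fc HFD group was -0.47, and without Fc(mML1)B3 mouse 2, that in the Fc(mML1)B3 standard diet group was -0.76, while the pooled value was -0.72 to -0.50 with each library left out. The libraries are not independent points, since 2 of the groups were split into 2 series each. In Fc(mML1)B3 mice on the HFD, mice 1 to 4 and mice 5 to 10 had mean levels of 153 and 253 CPM for Clpx and of 630 and 363 CPM for Alas1. With the mean of each series within a group removed as well, r was -0.49 over the 36 libraries, and -0.59 in Fc(mML1)B3 mice on the HFD and -0.26 in Fc mice on the standard diet.

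Sequences before annotated starts of both genes were searched because Clpx and Alas1 had the lowest r of the 36 pairs of the 9 genes. Windows of 250 bases before each RefSeq start (GRCm38.p6) were searched on both strands for CACGTG (E-box), TTANNTAA (D-box), TAGGTCA (element of REV-ERB and ROR), TGACGTCA (cAMP response element) and GCATGCGC (element of NRF1). The Clpx window held the NRF1 element 86 bases before the start, and the window of a second, internal Alas1 start held it on both strands in overlap, 195 and 193 bases before that start. This element was in 2.26% of 32851 windows of all genes. The window before the first Alas1 start held none of the 5 motifs, and the Alas1 element lies after that start, within the gene. The stretches around the element follow, with the element in capitals, for Clpx at chr9:65294163-65294192 on the plus strand and for Alas1 at chr9:106247905-106247934 on the minus strand.
Clpx: ttagtctccacGCATGCGCagcgtaaactc
Alas1: gcacccaaggcGCATGCGCggcggtcactc
Of the other 6 genes with a window, Alad, Urod and Uros held an E-box, 105, 49 and 250 bases before a start, and a second Alad start held one 28 bases before it. E-boxes were in 6.02% of the windows searched. Of these E-boxes, 2 are shown with the motif in capitals, for Alad at chr4:62520150-62520179 and for Urod at chr4:116994444-116994473, both on the minus strand.
Alad: ctccgaatgccCACGTGgaccccctcgggc
Urod: actggatcggtCACGTGgttctcaatatgg
The windows of Clpp, Cpox and Ppox held none of the 5 motifs, and no binding was measured here.

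Alad, which joins 2 molecules of the ALAS product into porphobilinogen, was at 123 to 199 CPM (median 157) in Fc mice and 155 to 212 CPM (median 178) in Fc(mML1)B3 mice under the HFD. With the standard diet, Alad was at 121 to 153 CPM in Fc mice and 148 to 183 CPM (median 168) in Fc(mML1)B3 mice. Of the 7 Fc(mML1)B3 mice on the standard diet, 5 lay above all Fc mice, and Alad rose there by 0.26 on the log2 scale (SE 0.06, adjusted p = 0.0038). Within the series that held both proteins the value was 0.23 (adjusted p = 0.066). Under the HFD it was 0.17 (adjusted p = 0.21), and the difference between the diets was 0.11 with a 95% interval of -0.11 to 0.33.

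Uros closes the ring to uroporphyrinogen III, and Urod, the next enzyme, removes its acetate carboxyl groups. Uros was at 15.9 to 20.1 CPM (median 17.6) in Fc mice and 16.7 to 24.1 CPM (median 20.6) in Fc(mML1)B3 mice under the HFD, where it rose by 0.26 (SE 0.07, adjusted p = 0.015). Of the 10 Fc(mML1)B3 mice, 7 lay above all Fc mice. In the standard diet experiment, Uros was at 13.9 to 22.8 CPM (median 17.5) and 14.8 to 17.8 CPM (median 15.7), a log2 difference of -0.17 (adjusted p = 0.16), and the difference between the diets was -0.41 (SE 0.1, adjusted p = 0.0076). With Fc(mML1)B3 mice 1 to 4 alone, the HFD value was 0.2 (adjusted p = 0.21). Urod had log2 differences of 0.19 (adjusted p = 0.12) under the HFD and 0.11 (adjusted p = 0.14) on the standard diet, with overlapping groups in both.

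Cpox turns coproporphyrinogen III into protoporphyrinogen IX in the space between the mitochondrial membranes, and Ppox oxidizes that to protoporphyrin IX. Cpox was at 96.7, 127 and 151 CPM (lowest, median and highest) in Fc mice and 147, 199 and 248 CPM in Fc(mML1)B3 mice under the HFD. All but 1 of the Fc(mML1)B3 mice lay above every Fc mouse, and Cpox rose 1.59-fold (log2 fold change 0.67, SE 0.1, adjusted p = 6.2e-05). It rose in the fits with either series of Fc(mML1)B3 libraries, by 0.52 (adjusted p = 0.0099) and 0.77 (adjusted p = 0.00015). In the standard diet experiment, Cpox was at 109 to 155 CPM in Fc mice and 113 to 156 CPM in Fc(mML1)B3 mice, a log2 difference of 0.1 with a 95% interval of -0.06 to 0.26, and the difference between the diets was -0.55 (SE 0.13, adjusted p = 0.0046).

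Ppox was at 16.8 to 24.5 CPM (median 21.7) in Fc mice and 14.9 to 23.7 CPM (median 17.7) in Fc(mML1)B3 mice under the HFD. It fell by 0.24 on the log2 scale (SE 0.08, adjusted p = 0.038), and the call was lost in 16 of 20 fits that each left out 1 library, with an adjusted p of up to 0.085. Its log2 difference on the standard diet was -0.02 (adjusted p = 0.89). Fech, on chromosome 18, inserts the iron in the last step and was at 153 ± 16.6 and 158 ± 12.6 CPM (SD, n = 10 each) under the HFD and 192 ± 14.5 (SD, n = 9) and 203 ± 15.8 CPM (SD, n = 7) on the standard diet. Its log2 differences with Fc(mML1)B3 were 0.06 and 0.08, and neither passed the test.

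**Figure D3:**
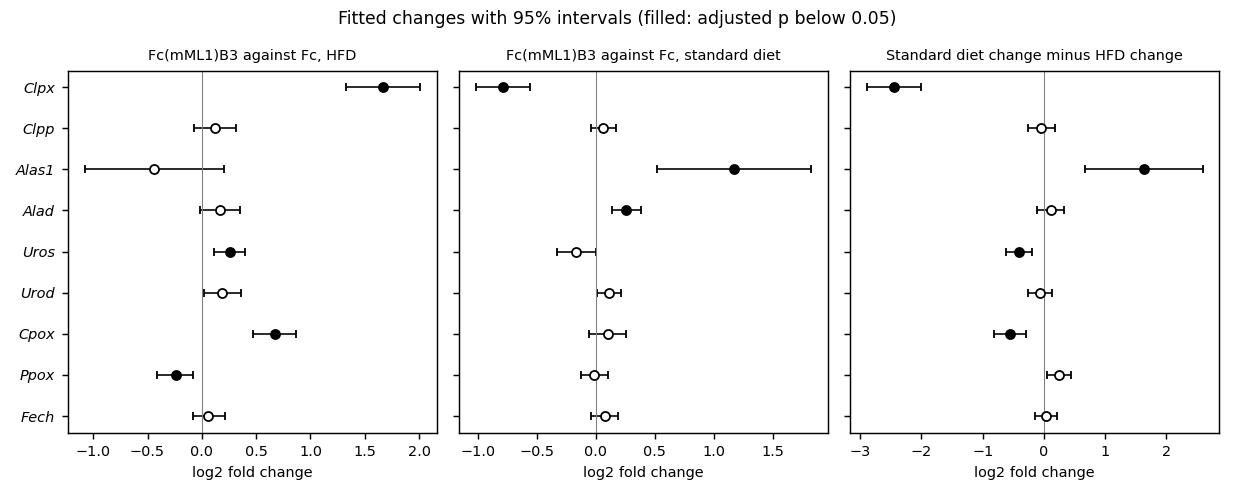
Fitted log2 fold change of each gene (x axis) with its 95% interval for Fc(mML1)B3 against Fc under the HFD, the same under the standard diet, and the standard diet change minus the HFD change, where filled points passed an adjusted p of 0.05. Clpx is at 1.67, -0.79 and -2.45, Alas1 at -0.44, 1.17 and 1.63, and Cpox at 0.67, 0.1 and -0.55.

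Counted together, 3 of the 9 genes were called higher (Clpx, Cpox and Uros) and 1 lower (Ppox) with Fc(mML1)B3 under the HFD, where 8.14% of the 13299 genes tested were called higher and 6.68% lower. Under the standard diet, 2 were called higher (Alas1 and Alad) and 1 lower (Clpx), beside 8.56% and 7.55% of 13570 genes. The difference between the diets was called for 4 (Clpx, Alas1, Uros and Cpox), beside 9.06% of 14105 genes in either direction. The median log2 fold change of the 9 was 0.17 under the HFD and 0.08 on the standard diet, beside -0.01 and -0.011 over all genes tested. Since the 9 genes were put together with these contrasts known, nothing is read from these shares.

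The 2 experiments also differed within each protein. In Fc mice, 2 of the 9 genes were higher on the standard diet than on the HFD (Clpx and Fech) and 2 lower (Alas1 and Alad), beside 23.3% and 24.6% of the genes tested. Clpx was higher by 0.88 on the log2 scale (SE 0.15, adjusted p = 5.5e-06) and Alas1 lower, with a log2 difference of -0.89 (SE 0.33, adjusted p = 0.024). In Fc(mML1)B3 mice, Fech was higher on the standard diet and Clpx, Uros, Urod and Cpox were lower, beside 20.7% higher and 17.9% lower over all genes. Clpx differed there by -1.56 (SE 0.16, adjusted p = 1.4e-09) and Cpox by -0.53 (SE 0.1, adjusted p = 4.6e-05). Fech was higher on the standard diet with either protein, by 0.33 (SE 0.06, adjusted p = 4.2e-05) in Fc mice and 0.36 (SE 0.07, adjusted p = 4.2e-05) in Fc(mML1)B3 mice. Alas2, the erythroid form of the first enzyme, was higher there as well, by 0.75 (SE 0.12, adjusted p = 3.4e-06) and 0.61 (SE 0.13, adjusted p = 0.00022), and its r over the 36 libraries with the group means removed was 0.61 with Fech, 0.53 with Alad and 0.52 with Cpox. The 9 erythroid markers in the files summed to 2.81 to 4.98 CPM on the standard diet and 1.95 to 7.33 CPM on the HFD. Among them, the 4 haemoglobin genes were at 0 for the reason given above. Klf1, an erythroid transcription factor, was lower on the standard diet in Fc mice (log2 difference -0.68, adjusted p = 0.0011). The part of erythroid RNA in the Fech values was not tested. These contrasts use the same mice as the comparisons of the proteins.

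Among themselves, the 9 genes formed 36 pairs, whose Pearson's r of group-centred log2 CPM ran from -0.60 to 0.67 with a median of 0.145. The highest value was that of Clpx with Cpox (0.67), which was 0.52 to 0.82 within the 4 groups, and 0.47 instead of 0.81 in Fc(mML1)B3 mice on the standard diet without mouse 2. Clpp with Urod had 0.66, Alad with Urod 0.62, Clpp with Alad 0.53 and Alad with Ppox 0.52, and no other pair was above 0.5. Clpx with Alas1 was the only pair below -0.5. Clpx and its partner Clpp had -0.21. With the series means removed as well, 4 pairs were above 0.5, Clpp with Urod (0.63), Clpx with Cpox (0.62), Alad with Urod (0.57) and Cpox with Fech (0.57), and no pair was below -0.5.

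**Figure D4:**
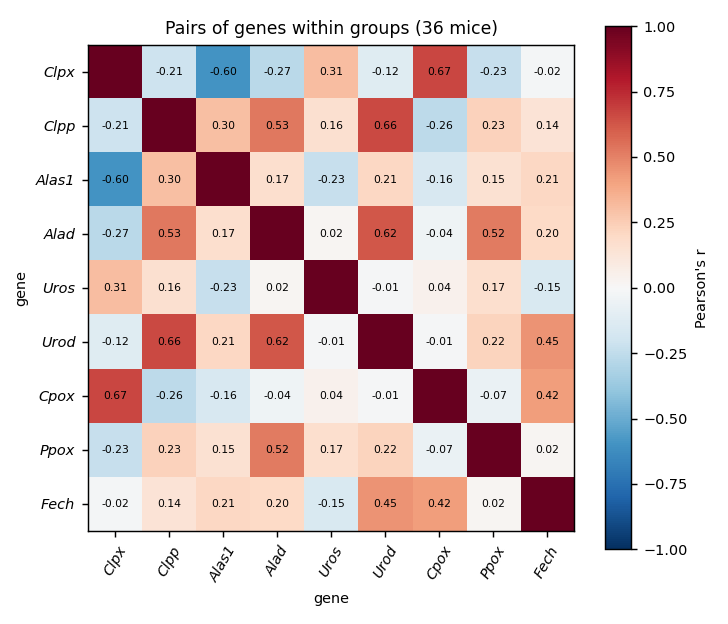
Pearson's r of log2 CPM for each pair of the 9 genes (both axes list genes, colour and number give r) over 36 mice after the mean of each group was removed. Clpx is at 0.67 with Cpox and -0.60 with Alas1, and Clpp, Alad and Urod are at 0.53 to 0.66 with each other.

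Over 14096 genes, those most alike to Clpx by the same measure were Cldn1 (r = 0.85), a tight junction gene, Mtmr4 (0.82), Trim2 (0.81), Insig2 (0.81), which encodes a retention protein of the sterol-sensing complex, and Pnkd (0.79). Those most alike to Alas1 were the predicted genes Gm14420 (0.80) and Gm14403 (0.78), Rrs1 (0.76), a ribosome assembly gene, Coq10b (0.72), which encodes a coenzyme Q binding protein, and Pptc7 (0.68), which encodes a mitochondrial phosphatase. All are over 36 libraries and are given without a test. With the series means removed as well, these genes were at 0.70 to 0.76 with Clpx and 0.62 to 0.79 with Alas1.

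With Fc(mML1)B3, Alas2 had log2 differences of 0.22 (adjusted p = 0.32) under the HFD and 0.06 (adjusted p = 0.53) on the standard diet, at 40.4 to 125 CPM in the HFD libraries and at means of 149 ± 12.6 CPM (SD, n = 9) and 155 ± 11.6 CPM (SD, n = 7) in Fc and Fc(mML1)B3 mice on the standard diet. Of 9 listed other genes of heme synthesis and its mitochondrial supply, Alas2 among them, 1 rose under the HFD (Slc25a38, a mitochondrial glycine carrier, by 0.38, adjusted p = 0.00046) and 4 rose under the standard diet. These were Slc25a37 and Slc25a28, the 2 mitoferrins that import iron, by 0.48 (adjusted p = 0.00018) and 0.25 (adjusted p = 0.013), Tmem14c, needed for porphyrinogen import, by 0.32 (adjusted p = 0.00084), and the porphyrin transporter Abcb6 by 0.21 (adjusted p = 0.039). Within the series that held both proteins, Slc25a28 and Abcb6 lost the call, and Abcb6 also lost it in 11 of 16 fits that each left out 1 library. For this and each later list, the shares called over all genes were 8.14% higher and 6.68% lower under the HFD and 8.56% and 7.55% under the standard diet, and nothing is read from a list's counts beyond these genes. The list's median log2 fold change was 0.19 and 0.13.

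Of the genes of heme breakdown and transport, 1 of 13 rose (Abcg2, a porphyrin exporter, by 0.56, adjusted p = 0.0013) and 1 fell (Bach1, a repressor that senses heme, by 0.37, adjusted p = 0.017) under the HFD. Bach1 lost the call in the fits with either series of Fc(mML1)B3 libraries alone. With the standard diet, 1 of 14 rose, Ugt1a1, which conjugates bilirubin and whose exons are shared with its family. Hmox1, the enzyme that degrades heme and rises with free heme, was at 27.5 to 84.5 and 35.2 to 58.2 CPM in the Fc and Fc(mML1)B3 groups under the HFD. It was at 22.5 to 50.7 and 27.6 to 40.7 CPM under the standard diet, and the groups overlapped in both. Lonp1, the other ATP-dependent matrix protease known to degrade ALAS1, had log2 differences of 0.09 (adjusted p = 0.39) and 0.05 (adjusted p = 0.6).

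Of 19 tested genes of mitochondrial proteases and chaperones, 2 rose under the HFD, Dnaja3 by 0.49 (adjusted p = 5e-05) and Hspd1 by 0.29 (adjusted p = 0.028), of which Hspd1 lost the call with either series alone and in 3 of 20 fits that each left out 1 library. Both encode matrix chaperones. With the standard diet, 6 rose and 1 fell, with Afg3l2, an inner membrane protease, at 0.15 (adjusted p = 0.011) and Hspd1 at 0.2 (adjusted p = 0.011). The list's median was 0.1 and 0.05.

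Of 25 tested microsomal P450 enzymes and their partners, 3 rose under the HFD (Cyp2c70, Cyp7b1 and Cyb5a) and 11 rose under the standard diet. Cyb5a lost the call in 12 of 20 fits under the HFD and in 4 of 16 under the standard diet that each left out 1 library. The list's median log2 fold change was 0.24 and 0.19. On the standard diet, Cyp7a1, the rate-limiting enzyme of bile acid synthesis, rose by 1.72 (SE 0.19, adjusted p = 3.8e-06), Por, which passes electrons to the P450 enzymes, by 1.14 (SE 0.12, adjusted p = 1.6e-06) and Cyp2a5 by 1.07 (SE 0.23, adjusted p = 0.0033). Within the series that held both proteins, Cyp7a1 and Por kept the call and Cyp2a5 had 0.7 (adjusted p = 0.053). Under the HFD, Cyp7b1, an oxysterol hydroxylase, rose by 0.92 (adjusted p = 0.0043) and Cyp2c70, which makes muricholic acids, by 0.91 (adjusted p = 3.5e-05). Reads that map to several P450 genes were not counted, which makes values within these families uncertain. Of 14 other heme proteins, 1 rose (Cycs, cytochrome c, by 0.38, adjusted p = 0.01) and 1 fell (Cygb, cytoglobin) under the HFD, and 3 rose and 1 fell (Pxdn, peroxidasin) under the standard diet. The Cygb call was lost in 14 of 20 fits that each left out 1 library, with an adjusted p of up to 0.079.

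**Figure D5:**
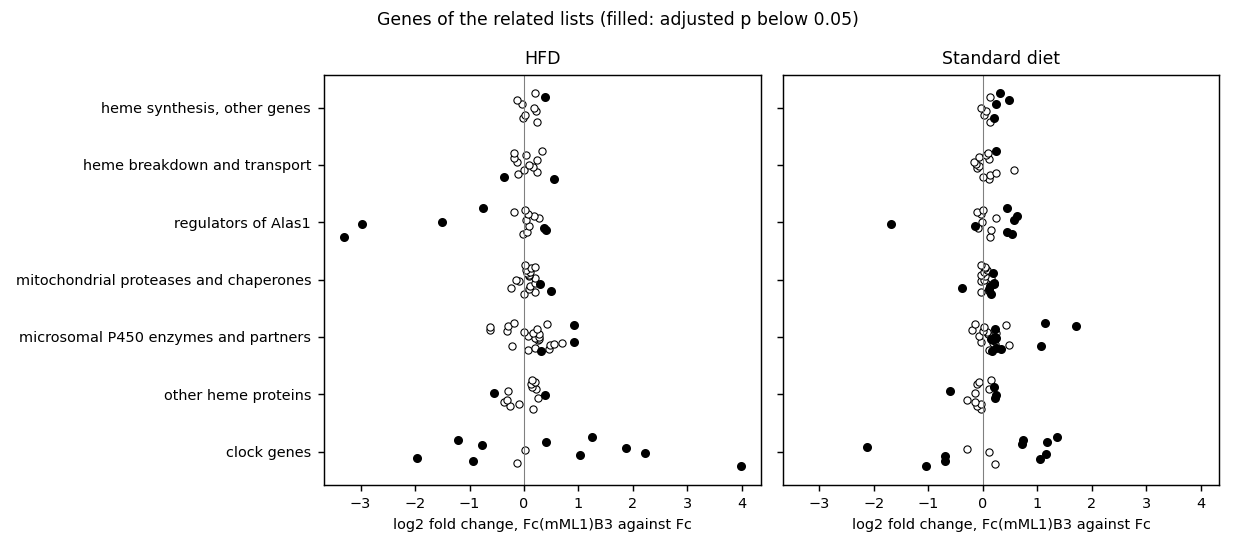
Log2 fold change with Fc(mML1)B3 (x axis) of each tested gene of 7 related lists (y axis) in each diet, with 1 point per gene and filled points at an adjusted p below 0.05. The clock genes and the regulators of Alas1 spread widest, and the 25 P450 enzymes and partners hold 11 called genes under the standard diet, all to the right of 0, where 8.56% of all genes tested were called higher.

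Clock genes moved with Clpx and Alas1. Of the clock list, 6 rose and 4 fell of 12 tested under the HFD, and 6 rose and 4 fell of 13 under the standard diet. Arntl, a core activator, was at 0.621 to 2.12 CPM in Fc mice and 6.59 to 28.6 CPM in Fc(mML1)B3 mice under the HFD, and at 2.29 to 6.42 and 0.92 to 3.38 CPM under the standard diet. It thus stood in the same order over the 2 proteins as Clpx in each diet, with log2 fold changes of 3.98 (SE 0.29, adjusted p = 1.1e-08) and -1.05 (SE 0.27, adjusted p = 0.011). Within the series that held both proteins the second value was -0.76 (adjusted p = 0.17). After the mean of each group was taken off, Arntl had a Pearson's r of 0.72 with Clpx and -0.45 with Alas1 over the 36 libraries. With Clpx, it was 0.08 in Fc mice and 0.96 in Fc(mML1)B3 mice on the HFD, and 0.93 and 0.67 on the standard diet. With Alas1, it was -0.17 and -0.75 on the HFD and -0.55 and 0.19 on the standard diet. When each mouse was left out, the value with Clpx in Fc mice on the HFD was -0.2 to 0.3. The value with Alas1 was then -0.28 to 0.25 in that group and -0.28 to 0.62 in Fc(mML1)B3 mice on the standard diet. Part of this lay between series, as Arntl had a mean of 11.8 CPM in Fc(mML1)B3 mice 1 to 4 and of 23.2 CPM in mice 5 to 10 on the HFD. With the series means removed as well, the values were 0.62 and -0.32. The hour of killing was not given in the sources used here, and the part of the clock genes in the Clpx and Alas1 values was not tested.

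Of 15 listed regulators of Alas1, 2 rose and 4 fell under the HFD. Dbp, a clock output activator whose exons overlap those of Sphk2, fell there by 3.31 (SE 0.33, adjusted p = 5.4e-07), from a median of 97.8 CPM in Fc mice to one of 6.33 CPM. Nr1d1, the heme-binding repressor REV-ERB alpha, fell by 2.97 (SE 0.31, adjusted p = 9.7e-07), and its relative Nr1d2 by 1.51. There were 5 that rose and 2 that fell under the standard diet. Nr1d1 again fell, by 1.68 (SE 0.15, adjusted p = 3.6e-07), from 102 to 159 CPM in Fc mice to 27.4 to 63.8 CPM, while Dbp was at 36 to 93 and 55.2 to 113 CPM (adjusted p = 0.62). The bile acid receptor Nr1h4 rose by 0.57 (adjusted p = 1.2e-06), the drug receptor Nr1i3, whose exons overlap those of Tomm40l, by 0.62 (adjusted p = 5.2e-05) and Foxo1 by 0.53 (adjusted p = 3e-05). Ppargc1a, a coactivator of Alas1 in fasting, had log2 differences of -0.19 (adjusted p = 0.32) and -0.11 (adjusted p = 0.66), and Nrf1 had 0.08 (adjusted p = 0.63) and -0.04 (adjusted p = 0.71).

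With Fc(mML1)B3 against Fc, markers of other cell types were called as follows, where 6.68% of all genes were lower under the HFD and 7.55% on the standard diet. Of 8 macrophage, 8 stellate cell, 6 endothelial, 5 cholangiocyte and 7 lymphoid markers tested, only 2 lymphoid genes were called under the HFD, both lower (Ms4a1 and Cd79b). Lower on the standard diet were 2 stellate cell genes (Pdgfrb and Des) and 1 cholangiocyte gene (Sox9). Klf1, the only erythroid marker that passed the filter in the fit of either diet, was lower under the HFD (log2 fold change -0.66, adjusted p = 0.03) and had 0.21 (adjusted p = 0.25) under the standard diet. Between the diets, 24.6% of all genes were lower on the standard diet in Fc mice and 17.9% in Fc(mML1)B3 mice. Called lower in Fc mice were 6 lymphoid, 4 stellate cell, 3 macrophage and 2 cholangiocyte genes and 1 endothelial gene. In Fc(mML1)B3 mice these were 3 stellate cell, 3 cholangiocyte, 1 lymphoid, 1 macrophage and 1 endothelial gene. Called higher were 1 stellate cell and 1 endothelial gene with either protein and 1 lymphoid gene in Fc(mML1)B3 mice, beside 23.3% and 20.7%. The part of these cells in the values of the 9 genes was not tested.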

How the data were processed

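Liver RNA of 36 mice was sequenced, 1 library per mouse, and mice were grouped and numbered by their sample titles. The deposited values are counts per gene. The authors trimmed reads with fastp, removed ribosomal RNA with Bowtie2 2.4.5, aligned to mm10 with STAR 2.7.10a and counted both reads of a pair, without strand or reads of several alignments, with featureCounts of Subread 2.0.3. From these counts, each diet was fitted alone with edgeR 4.0.16 (R 4.3.3; quasi-likelihood F-test, TMM, filterByExpr), and contrasts across diets were fitted over all 36 libraries. P-values were adjusted by Benjamini-Hochberg over all genes tested, and genes were called at 0.05. SE is the log2 fold change over the square root of F, and intervals are 95%. CPM are TMM-scaled, and log2 CPM used a prior count of 2. The fits were also run on simulated counts with the same spread for every gene and no series. That setting differs from these data, and nothing is drawn from it.

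The 9 genes, the lists and the tests were chosen with earlier results of these data known. The text names the 9 genes, partner genes (Alas2, Hmox1, Lonp1, Arntl, Dbp and Nr1d1), genes among the 4 smallest p of each list under each diet, and the 5 most alike to Clpx and to Alas1. Other genes named as counted list members, and Ppargc1a and Nrf1, were chosen after their values were seen. A gene of the lists is not reported here. Alternatives were DESeq2 1.42.0, limma 3.58.1 (voom with quality weights), upper-quartile scaling, no filter, the study's thresholds, single series, leaving out each library (for the difference between diets chosen after seeing the data), correlations with series means removed or each library left out (also chosen after seeing the data) and a replicate block. No library pair of a group was a duplicate.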

Additional observations from a re-analysis of the deposited data

Results flagged for a closer look

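Of the 36 combinations of a gene and a group, 3 held 1 mouse far from the others, and chance gives about 1 in 20. Alas1 was at 232 CPM in Fc mouse 1 on the HFD, below the nearest mouse at 564 CPM. Urod was at 94.8 CPM in Fc(mML1)B3 mouse 6 on the standard diet, above the nearest at 88.4 CPM. Ppox was at 23.7 CPM in Fc(mML1)B3 mouse 2 on the HFD, above the nearest at 18.5 CPM.

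By the interaction term of edgeR, 4 of the 9 genes responded to Fc(mML1)B3 differently in the 2 diets, beside 9.06% of all genes tested, and the 9 were put together with this contrast known. The standard diet change minus the HFD change was -2.45 on the log2 scale for Clpx, 1.63 for Alas1, -0.41 for Uros and -0.55 for Cpox. Without Fc(mML1)B3 mouse 6 of the standard diet, Alas1 no longer passed the test (1.47, adjusted p = 0.05).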

How the results depend on the processing

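Clpx kept its call and direction in each comparison under every alternative run. For the 9 genes over all comparisons, 1 call was lost without the filter, 4 were gained with limma-voom and 3 with upper-quartile scaling. DESeq2 changed no call. Over all genes, limma-voom called 3039 under the HFD and 2026 for the difference between diets, against 1972 and 1278. The study's thresholds called 178 genes under the HFD and 320 on the standard diet, and 1 of the 9 genes (Clpx) under the HFD. With Fc(mML1)B3 mice 1 to 4 alone, 705 genes and 2 of the 9 (Clpx and Cpox) were called under the HFD, and within the series that held both proteins 942 genes and 1 of the 9 (Clpx) under the standard diet. Without Fc(mML1)B3 mouse 2 on the HFD, the Ppox difference between diets passed the test.

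The title numbers did not pair the mice. The correlation of same-numbered mice was -0.62 to 0.26 over 10 pairs under the HFD and -0.16 to 0.00 over 7 pairs under the standard diet, and 1 and 0 mice correlated best with their own number. With the number as a replicate block, 1294, 1302 and 808 genes were called on the HFD, on the standard diet and for the difference between diets. Under the block, Ppox under the HFD (adjusted p = 0.09) and the Cpox difference (adjusted p = 0.052) no longer passed the test.

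Values near 0 changed sign. Hmox1 under the HFD was 0.15 with limma-voom, 0.07 with the block and 0.13 with mice 1 to 4, and -0.07 to 0.13 with each library left out. Within the series, Ppox was 0.01, Hmox1 0.07 and Dbp -0.09 under the standard diet. Ppox was -0.05 to 0.01 and the Fech difference -0.03 to 0.06 with each library left out. Between diets, upper-quartile scaling gave -0.07 for Uros and -0.06 for Cpox in Fc mice and -0.02 for Clpp in Fc(mML1)B3 mice, and limma-voom gave -0.01 for Uros in Fc mice.

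With each library left out, 3 or 4 of the 9 genes were called under either diet (1555 to 2848 and 1730 to 2230 genes in all) and 3 to 5 for the difference (1059 to 1540). The r of Clpx and Alas1 was -0.78 in Fc mice on the HFD (-0.47 without mouse 1) and 0.04 in Fc(mML1)B3 mice on the standard diet (-0.76 without mouse 2), and that of Clpx and Cpox was 0.82 in Fc(mML1)B3 mice on the HFD. The lowest counts of the 9 genes were 201 reads for Ppox and 246 for Uros, both in HFD libraries. Each comparison rests on 1 experiment per diet, and what the mice of a group shared besides their treatment cannot be told apart from it.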
